A study of Mus musculus with 2 samples.

Results

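The genes of the microtubule motors were examined in the forebrain of mouse embryos: every protein-coding gene whose symbol begins with Kif and a digit, or with Kifc, Klc, Dync, Dynl or Dctn. This rule, which uses no measured value, took 69 of the 21473 protein-coding genes in both tables: 42 kinesin heavy chain genes, 4 kinesin light chain genes, 16 dynein chain genes, 6 dynactin genes and Kif1bp, which encodes a protein that binds kinesins and is no motor itself. All 69 were placed in a list by role. The samples are 2 libraries of 1 group: healthy B6NCrl mouse embryos at embryonic day 13.5, forebrain tissue of males and females pooled. Each library was made from 10 ng of total RNA of more than 200 bases. The labels call them biological replicates, from separate tissue samples with the same donor code. No other condition was measured, so no test between groups exists and each error is the SD of 2 libraries (n = 2).

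Kinesins and dyneins are enzymes that walk along microtubules with energy from ATP. Most kinesins move toward the plus end, which in an axon points to its tip, and cytoplasmic dynein-1, together with dynactin, moves toward the minus end and back to the cell body. In the embryonic forebrain the same machinery serves neurons, which carry vesicles and organelles along their axons, and dividing progenitors, which build spindles and whose nuclei move up and down as they cycle.

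Replicate 1 held 35378462 estimated counts and replicate 2 36793284, and the motor genes took 253501 (0.717%) and 261076 (0.710%) of these. Forebrain markers were present, with 5 of 5 at 10 TPM or more in both libraries, and the 6 markers of midbrain, hindbrain and spinal cord all stayed under 1 TPM, Hoxb4 with no count. Markers of neurons (6 of 6) and of neural progenitors (6 of 6) were also at 10 TPM or more, so motor levels are those of a mixed tissue, in which fewer cells of a type and less RNA per cell cannot be told apart. TPM, the unit of all levels below, is a share of the transcripts in a library corrected for length, so genes can be compared by it.

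Nearly all motor genes were detected. A level of 1 TPM in both libraries was reached by 63 of the 69, against 59% of all protein-coding genes, a level of 10 TPM by 44, against 38.9%, and a level of 100 TPM by 17, against 7.42%. The median motor gene had 28.9 TPM over the means of both libraries (31.1 in replicate 1 and 29.8 in replicate 2), and the median protein-coding gene 3.92 TPM (4.09 and 3.71). Among motor genes at 1 TPM or more the median was 36.6 TPM, beside 20.1 TPM for the 12664 protein-coding genes that passed the same threshold. Kif2b, a kinesin of dividing cells, was at 0 in both libraries. At these depths a count of 0 (3 counts at most) leaves room for 0.0629 TPM in replicate 1 or 0.0577 TPM in replicate 2, a floor for counting error only.

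**Figure D1:**
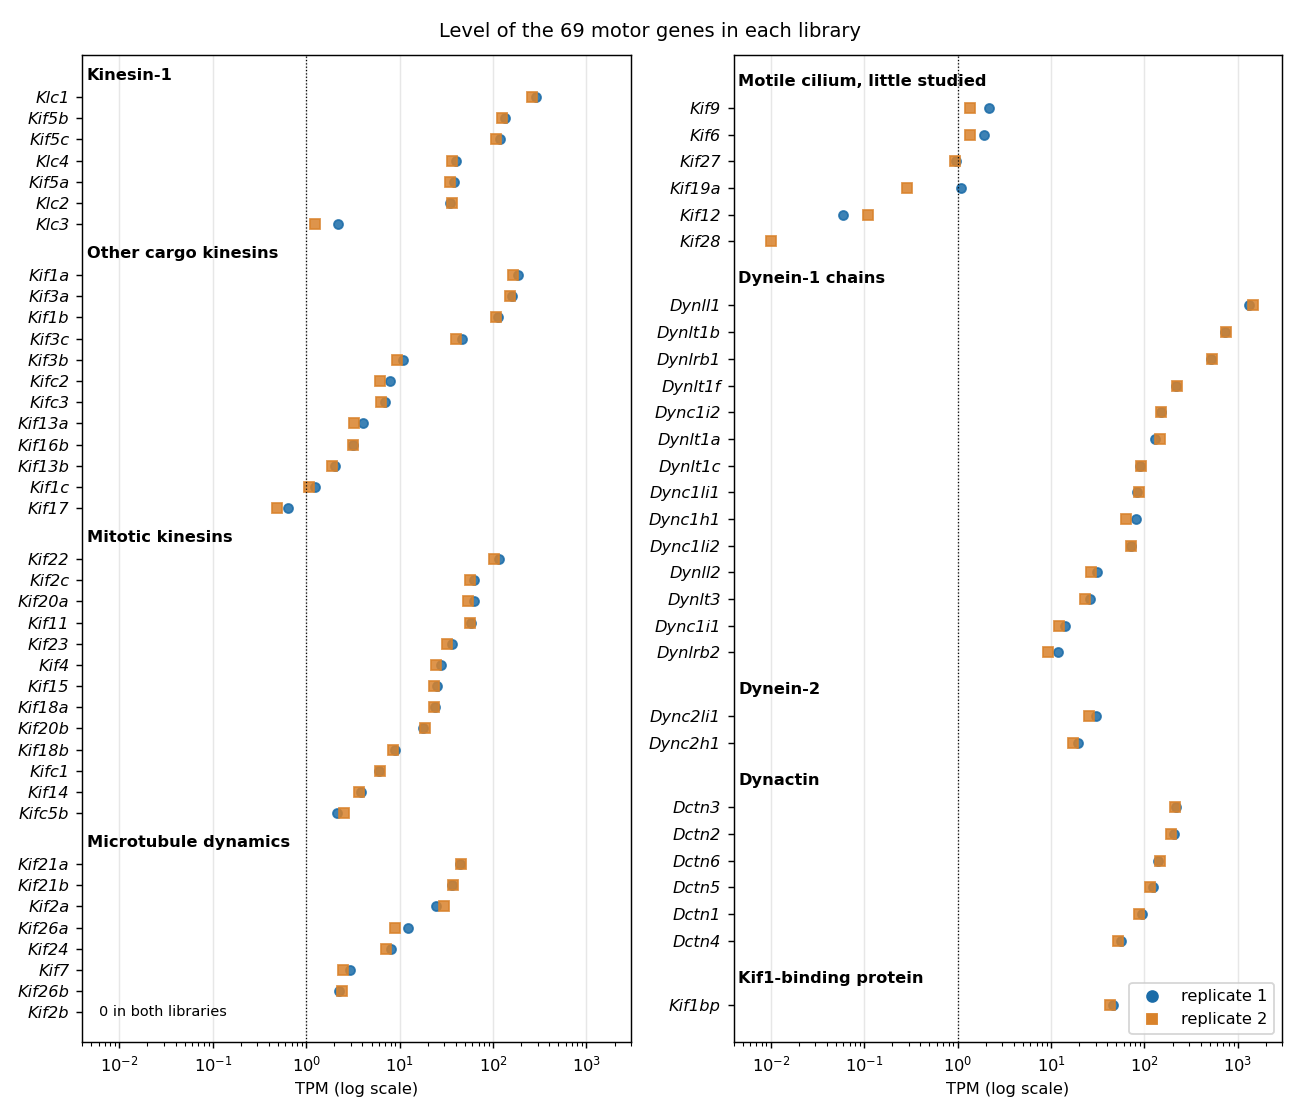
TPM of each of the 69 motor genes on a log axis, grouped by role and ordered by mean level, with a circle for replicate 1, a square for replicate 2 and a dotted line at 1 TPM; values of 0 are not drawn. Dynein-1 light chains reach 1434 TPM, and 6 genes lie below 1 TPM in at least 1 library.

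A gene's TPM adds up all its annotated transcripts, and 286 transcripts are listed for the motor genes. Of these, 138 are complete coding transcripts, annotated as protein coding with both ends found. The rest are fragments of coding transcripts, transcripts with a retained intron, other processed transcripts without a reading frame, and targets of nonsense-mediated decay. Since TPM divides reads by length, a short fragment can hold much TPM with few reads. For this reason the TPM of complete coding transcripts alone, a sum chosen after seeing the data, is given beside the gene level for the genes whose order or ratio it changes.

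Kinesin-1, the conventional kinesin, is a pair of heavy chains (Kif5a, Kif5b or Kif5c) with a pair of light chains (Klc1 to Klc4) that hold cargo. Klc1 was its most abundant gene, and Klc1 was also the highest of all kinesin genes. Klc1 (chromosome 12, 111758849 to 111807844, GRCm38) measured 285.0 TPM in replicate 1 and 262 in replicate 2 (274 ± 16.1, SD, n = 2). It held 78.4 ± 0.451% of the summed light chain TPM. Klc4 followed at 39.8 and 36.2 TPM and Klc2 at 34.97 and 36.1 TPM. Of the Klc2 TPM 60.6% was in complete coding transcripts, and of the Klc4 TPM 100%. By gene TPM Klc4 and Klc2 were close, with 10.9 ± 0.144% and 10.2 ± 0.764% of the light chain sum. Klc3, known mainly from sperm, had 2.19 and 1.23 TPM on 61.7 and 42.1 counts.

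The heavy chains differed in the order given by 2 ways of counting. Kif5b, the form found in all cells, had 133 and 124 TPM, Kif5c (chromosome 2, 49619298 to 49774778), a neuronal form, 117 and 106 TPM, and Kif5a (chromosome 10, 127225696 to 127263348), the other neuronal form, 38.4 and 34.8 TPM. By gene TPM, Kif5b was higher than Kif5c in both libraries, with 46.4 ± 0.496% of the sum against 40.4 ± 0.381%, and Kif5a held 13.2 ± 0.115%. The leading Kif5b transcript, Kif5b-202, is a coding fragment of 2006 bases with 54.5% and 53.0% of the gene's TPM, whereas the complete Kif5b-201 of 6032 bases held 69.4% and 70.4% of its reads. Over complete coding transcripts Kif5c led with 55.4 ± 0.511%, followed by Kif5b at 26.4 ± 0.728% and Kif5a at 18.2 ± 0.217%. Both neuronal forms together held 53.9% and 53.2% of the heavy chain TPM by gene and 74.1% and 73.1% over complete coding transcripts. Kif5a was listed with a single transcript.

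**Figure D2:**
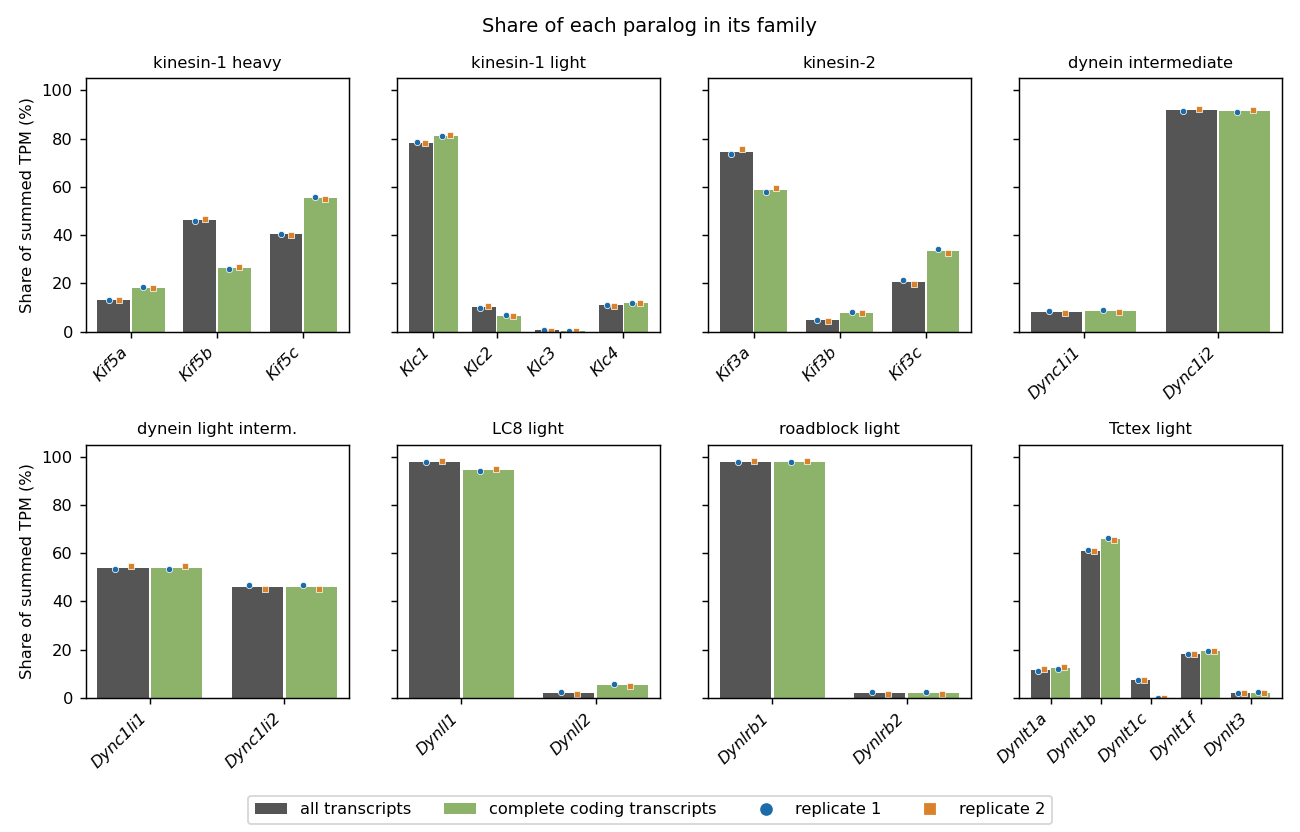
Share of each paralog in the summed TPM of its family, in percent, for 8 families: bars are means of 2 libraries, grey for all transcripts and green for complete coding transcripts, with a circle for replicate 1 and a square for replicate 2. The bars of Kif5b and Kif5c change order between the counts, with Kif5b at 46.4% of all TPM and 26.4% of complete coding TPM.

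The other cargo kinesins were a list of a few abundant genes and many low ones. Of 12 members, 11 reached 1 TPM in both libraries and 4 reached 10 TPM. The highest was Kif1a (chromosome 1, 93015464 to 93101951), a neuronal motor that carries precursors of synaptic vesicles, with 185 and 165 TPM. Kif3a, the shared subunit of the heterotrimeric kinesin-2 that builds cilia and moves cargo in axons, had 159.9 and 153 TPM, and 77.9 and 72.8 TPM in complete coding transcripts. Kif1b, a relative of Kif1a that moves mitochondria and vesicle precursors, had 112 and 109 TPM. Kif3c had 46.2 and 40.0 TPM and Kif3b 10.9 and 9.30 TPM. The remaining 7 lay between 0.565 and 7.02 TPM on average, and the lowest was Kif17, a homodimeric kinesin-2 of cilia and dendrites, with 0.64 and 0.49 TPM on 32 and 28 counts.

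Kif3a pairs with Kif3b or with Kif3c, so their levels were set side by side. The sum of Kif3b and Kif3c was 0.339 ± 0.025 of Kif3a by gene TPM, and 0.705 ± 0.0396 over complete coding transcripts. In both counts Kif3c was above Kif3b, in both libraries. Kif1a lost more: its complete coding transcripts had 52.6 and 47.2 TPM, or 28.6% of the gene's TPM, while they held 86.4% of its reads. By this count Kif1b (65.2 and 60.6 TPM) was higher than Kif1a in both libraries, the reverse of the order by gene TPM. Kif1bp, the partner protein named after this family, had 45.9 and 43.0 TPM.

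The kinesins listed for the spindle and cell division were all present. Kif2b, at 0 in both libraries, was placed in another list, so this holds only for the list as drawn. All 13 reached 1 TPM in both libraries and 9 reached 10 TPM, with a median of 24.2 TPM. Kif22, which binds chromosome arms and pushes them outward, had 115 and 102 TPM. Kif2c, which takes tubulin off microtubule ends at centromeres, had 62.2 and 56.1 TPM. Kif20a, a kinesin of the cleavage furrow, had 62.1 and 54.6 TPM, and Kif11, which slides spindle poles apart, had 58.0 and 56.1 TPM. Kif23, a part of the centralspindlin complex at the spindle midzone, had 36.1 and 32.1 TPM. These 5 genes lay above the others, which ran from 2.36 to 26.2 TPM on average. The lowest was Kifc5b with 2.16 and 2.55 TPM, a near copy of the minus-end spindle motor Kifc1 (5.94 and 6.22 TPM). Their coding sequences share 1984 identical bases with 32 mismatches, and the authors' posterior SD of the counts was 1.89% and 2.12% of the count for Kifc1 and 3.92% and 3.25% for Kifc5b. Reads in identical stretches cannot be told apart between these 2 genes.

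Mitotic kinesins were compared with cargo kinesins, taken as the 12 above and the 3 Kif5 genes. The median level of the 13 mitotic genes was 25.3 and 23.2 TPM in replicates 1 and 2, and that of the 15 cargo genes 10.9 and 9.30 TPM. The difference of the medians on the log2(TPM + 1) scale was 1.19 ± 0.057 (SD, n = 2). Its size depends on the members and the measure. With means over members in place of medians the difference was 0.25. When members under 1 TPM were left out, which removed Kif17 alone, the difference of medians was 0.31. The highest cargo kinesin, Kif1a, was above the highest mitotic kinesin, Kif22, in both libraries by gene TPM, and below it over complete coding transcripts. There Kif5c was the highest cargo kinesin at 117 and 106 TPM, slightly above Kif22 at 115 and 102 TPM. The highest cargo kinesin was thus above the highest mitotic kinesin in both libraries by either count.

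Kinesins that change microtubule growth or serve signalling had a median of 9.11 TPM, and 7 of 8 reached 1 TPM. Kif21a and Kif21b, which slow the growth of microtubule ends, led with 44.7 and 45.7 TPM and with 36.5 and 37.3 TPM. Kif2a, which shortens microtubules and limits the growth of axon branches, had 24.5 and 29.8 TPM. Kif26a, a member without motor activity that acts in developing neurons, had 12.1 and 8.95 TPM, and Kif24, a kinesin of the centriole, 8.12 and 7.23 TPM, of which complete coding transcripts had 2.65 and 2.59 TPM. The lowest was Kif2b, with no count as given above.

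Kinesins of motile cilia and little studied kinesins were the lowest list. Of 6 members 2 reached 1 TPM in both libraries. Kif9, a kinesin of motile cilia and sperm tails, had 2.19 and 1.35 TPM, and Kif6 1.93 and 1.36 TPM, of which 31% was in complete coding transcripts. Kif27 had 0.96 and 0.93 TPM, Kif19a, which sets the length of motile cilia, 1.09 and 0.29 TPM on 21 and 10 counts, Kif12 0.06 and 0.11 TPM on 1 and 2 counts, and Kif28 no count and 1 count. Axonemal dyneins, the other motors of motile cilia, were sparse too. By gene TPM, 6 of 18 reached 1 TPM in both libraries and their median was 0.71 TPM. Dnal4 (74.3 TPM) and Dnal1 (8.27 TPM) were highest and Dnah3 (0.045 TPM) lowest. Over complete coding transcripts the median of the 18 was 0.19 TPM.

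Cytoplasmic dynein-1 is built on a pair of heavy chains (Dync1h1), which hold the motor, with intermediate chains, light intermediate chains and 3 families of small light chains. All 14 genes reached 1 TPM in both libraries and 13 reached 10 TPM, with a median of 87.8 TPM, the second highest among the role lists with more than 1 member. Light chain genes were the highest of all motor genes. Dynll1 (chromosome 5, 115297110 to 115300999), whose small protein also binds many partners outside dynein, had 1312 and 1434 TPM and was number 43 among all protein-coding genes. Over complete coding transcripts it had 499 and 516 TPM, below Dynlt1b in both libraries. Dynlt1b had 729 and 749.9 TPM, and Dynlrb1 (chromosome 2, 155236533 to 155250277) 510.0 and 524 TPM. Dynlt1f had 215 and 223 TPM, and the intermediate chain gene Dync1i2 149 TPM in each. The lowest was Dynlrb2 with 11.9 and 9.25 TPM.

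In each chain class with a clear leader, 1 paralog held most of the TPM. Dync1i2, used in all cells, held 91.9 ± 0.711% of the intermediate chain TPM, and Dync1i1, the neuronal paralog, the remaining 8.08 ± 0.711%. Dynll1 held 97.9 ± 0.346% against Dynll2, and Dynlrb1 98.0 ± 0.385% against Dynlrb2. Light intermediate chains, which link dynein to its adaptors, were the exception: Dync1li1 held 54.1 ± 1.10% and Dync1li2 45.9 ± 1.10%. Dync1li1 was the higher of both in each library by TPM, at 82.7 against 72.5 TPM and at 87.1 against 71.7 TPM, and the lower by counts, which are not corrected for length.

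The Dynlt1 light chain is encoded by 4 gene copies on chromosome 17, and their sequences show how far reads can separate them. Dynlt1a (6306340 to 6317500), Dynlt1c (6601671 to 6609774) and Dynlt1f (6646602 to 6655900) have identical coding sequences of 339 bases, and Dynlt1b (6430112 to 6436296) differs from them at 1 position. The first 48 coding bases are shown 5′ to 3′ with that position, 21 from the first base of the start codon, in capitals.
Dynlt1a: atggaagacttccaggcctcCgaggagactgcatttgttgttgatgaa
Dynlt1b: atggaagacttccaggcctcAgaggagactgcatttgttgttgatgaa
Dynlt1c: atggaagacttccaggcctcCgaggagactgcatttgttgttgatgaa
Dynlt1f: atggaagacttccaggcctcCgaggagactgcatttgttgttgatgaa

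The levels of the copies, 131 and 147 TPM for Dynlt1a, 729 and 749.9 TPM for Dynlt1b, 90.5 and 90.8 TPM for Dynlt1c and 215 and 223 TPM for Dynlt1f, thus rest on reads outside the coding sequence or at that base. The authors' posterior SD of the counts in replicate 1 was 4.17% of the count for Dynlt1a, 0.899% for Dynlt1b, 0.841% for Dynlt1c and 1.78% for Dynlt1f, less than the differences between their counts, and it holds for the annotation the authors used. The copies summed to 19139 and 21450 estimated counts and to 1165 and 1211 TPM. Dynlt1-ps1, a pseudogene outside the rule, had 994 and 930 further counts. Dynlt1c had nearly no TPM in complete coding transcripts (0 and 0.16 TPM), since its reads were given to transcripts with a retained intron. Dynlt3, the X-linked relative, shares 217 of 348 bases with Dynlt1b and had 26.1 and 23.2 TPM. The Dynlt1 copies together held 98.0% of the Dynlt sum.

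The heavy chain gene gave the largest gap between reads and TPM among the dynein genes outside the Dynlt1 copies. Dync1h1 (chromosome 12, 110601452 to 110666945) had 81.9 and 63.1 TPM. Its leading transcript, Dync1h1-204, is a retained intron of 427 bases with 48.4% and 50.9% of the TPM on 3.61% and 3.51% of the reads. The complete transcript Dync1h1-201 of 14342 bases held 93.8% and 94.5% of the reads and 23.7 and 19.9 TPM. With all transcripts, the intermediate chains summed to 2.28 ± 0.405 times the heavy chain and the light intermediate chains to 2.21 ± 0.441 times. Over complete coding transcripts these ratios were 7.10 ± 0.841 and 7.26 ± 1.01. Intermediate and light intermediate chains were nearly level with each other in both counts, at 162 ± 0.948 and 157 ± 2.54 TPM for all transcripts. TPM ratios are ratios of RNA and give no protein stoichiometry.

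Dynein-2, the retrograde motor of intraflagellar transport in cilia, was lower. Its heavy chain gene Dync2h1 had 19.3 and 17.3 TPM and its light intermediate chain gene Dync2li1 30.6 and 25.6 TPM. The complete coding transcripts of Dync2h1 had 15.7 and 14.5 TPM, of which 10.8 and 10.9 TPM belonged to Dync2h1-202, a transcript of 2892 bases. The long Dync2h1-204, of 14264 bases, had 4.22 and 3.45 TPM, and Dync1h1-201, of 14342 bases, was above it in both libraries at 23.7 and 19.9 TPM.

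Dynactin, the complex that links dynein to cargo and lets it walk far, was expressed at a high level throughout by gene TPM. All 6 named subunits reached 10 TPM, with a median of 132 TPM, the highest of the role lists. Dctn3 had 218 and 215 TPM and Dctn2 210 and 190.1 TPM, both subunits of the shoulder. Dctn6 had 141 and 147 TPM and Dctn5 125 and 115 TPM, both of the pointed end of the actin-like filament. Dctn1, the large subunit that binds microtubules and dynein, had 95.3 and 88.5 TPM, and Dctn4 56.6 and 51.8 TPM. On the log2(TPM + 1) scale the dynactin median lay 0.57 ± 0.051 above the dynein-1 median (SD, n = 2). Over complete coding transcripts the difference was 0.26. Dctn6 had the largest share to lose: its transcripts with a retained intron, Dctn6-210 and Dctn6-209, led. Its complete coding transcripts had 13.4 and 14.05 TPM, and held 9.55% of its TPM and 13.3% of its reads.

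Counted over the 47 motor genes with a mean TPM of at least 10, complete coding transcripts held under 50% of the TPM in 7: Kif5b, Kif1a, Kif3a, Dync1h1, Dynll1, Dynlt1c and Dctn6. The share of all such protein-coding genes was 13.5%, so 7 of 47 (14.9%) is near the background. In 34 of the 47, complete coding transcripts held 90% or more. The same 7 genes were those whose leading transcript was not a complete coding one. They are 7 of the 29 genes (24.1%) that had this level and 2 or more transcripts, a higher share than the 13.1% of all such protein-coding genes. Both shares count the same 7 genes. Their bases differ, since genes with a single transcript are in the 47 and not in the 29, so the higher share is not read as a trait of motor genes. For Kif5b, Kif1a, Kif3a, Dync1h1 and Dynll1 most reads still went to complete transcripts (69.9%, 86.4%, 78.7%, 94.1% and 53.6%), and only in Dynlt1c and Dctn6 among the 7 did most reads go elsewhere.

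**Figure D3:**
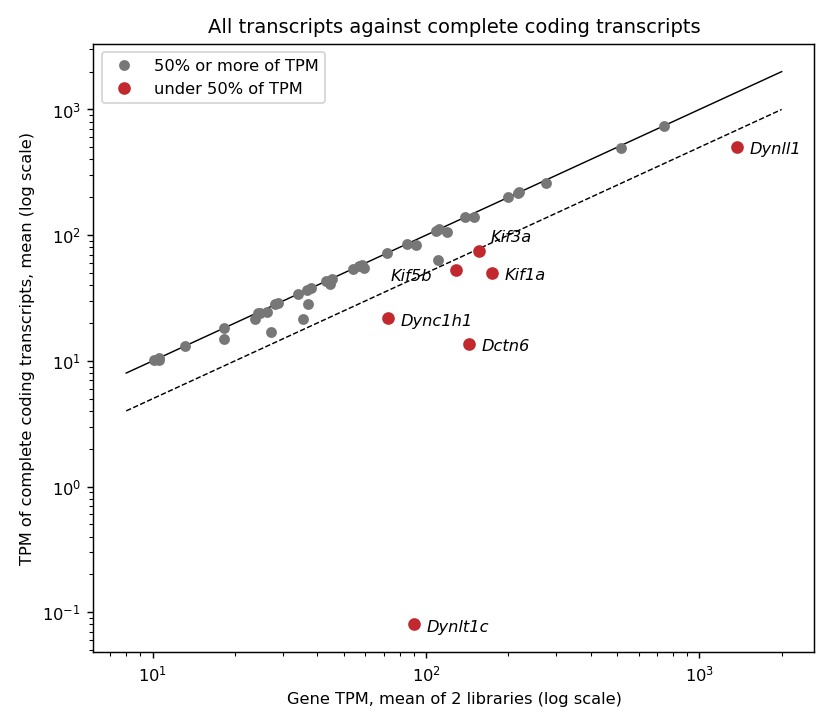
TPM of complete coding transcripts against gene TPM, means of 2 libraries on log axes, for the 47 motor genes with a mean TPM of at least 10; the solid line is equality and the dashed line 50%. Red points are the 7 genes below 50%, with Dynlt1c lowest and Dctn6 at 9.55%.

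The leading transcript was the same in both libraries in 28 of these 29 genes, against 94% of all such protein-coding genes. The exception was Dynlt1c, in which Dynlt1c-204 and Dynlt1c-203 were nearly level in each library. In 13 of the 29 the leader held under 60% in both libraries, against 37%. These were the 7 genes just named other than Dctn6, with Klc1, Klc2, Kif1b, Kif2a, Kif21a, Dync1i2 and Dctn1. In Kif1a the leader was Kif1a-206, a coding fragment of 528 bases with 49.7% and 47.1%, in Kif3a the decay target Kif3a-206 with 34.0% and 35.9%, and in Dynll1 the non-coding Dynll1-203 with 43.5% and 44.0%. Complete coding transcripts led in Klc2 (Klc2-201, 42.4% and 33.7%) and in Dync1i2 (Dync1i2-207, 55.7% and 56.5%). Kif21a-204 held 59.9% and 59.7%, Kif21a-205 25.4% and 25.8%, and Kif21a-202 13.8% and 14.6%, so the mix of Kif21a was closely alike in both libraries. Kif2a was less steady: the complete Kif2a-201 held 58.2% and 41.3%, and a coding fragment of 288 bases, Kif2a-205, 26.2% and 40.5% on 1.42% and 2.82% of the reads. Kif5c had 1 leading transcript with over 99% in both libraries.

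Complete coding transcripts that differ by a short coding segment were compared next. Each segment shown is a multiple of 3 bases long, so it keeps the reading frame. The share with a segment is the TPM of complete coding transcripts that hold it over the TPM of those that span it. These shares are estimates of the authors' quantification, which divides reads that fit several transcripts. Sequences below are from the GENCODE M21 transcripts on GRCm38, 5′ to 3′ on the gene's strand, with the segment in capitals and up to 15 flanking coding bases in lower case.

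Both dynein intermediate chain genes have an alternative exon of 60 bases, and the exons are related: 46 of 60 positions are identical. Both sequences are shown to allow that comparison.
Dync1i1, chr6:5784439-5784498, plus strand: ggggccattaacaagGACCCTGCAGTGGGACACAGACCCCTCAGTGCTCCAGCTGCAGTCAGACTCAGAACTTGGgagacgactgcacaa
Dync1i2, chr2:71233649-71233708, plus strand: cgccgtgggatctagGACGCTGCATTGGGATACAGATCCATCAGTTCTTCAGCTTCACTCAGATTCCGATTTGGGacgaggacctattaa

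In Dync1i2 the exon was in 63.4% of the complete coding TPM in replicate 1 and 61.9% in replicate 2. In Dync1i1 it was in 75.3% and 59.8%, on 775 and 736 counts for the whole gene. The exon was thus in most TPM of both genes in both libraries. The libraries were 1.56 percentage points apart for Dync1i2 and 15.5 percentage points apart for Dync1i1, so the paralogs did not differ beyond the spread between libraries (67.5 ± 11.0% and 62.6 ± 1.11%). The second segment of Dync1i1, of 33 bases, was in 91.4% and 89.7%.

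Dctn1 has 4 short alternative exons, the first 3 of which follow one another near the microtubule-binding end of the protein. They are shown because their use splits the Dctn1 TPM into large parts.
Dctn1, chr6:83183936-83183956, plus strand: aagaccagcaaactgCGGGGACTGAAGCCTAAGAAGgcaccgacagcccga
Dctn1, chr6:83186428-83186445, plus strand: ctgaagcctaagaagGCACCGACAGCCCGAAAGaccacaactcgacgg
Dctn1, chr6:83187764-83187784, plus strand: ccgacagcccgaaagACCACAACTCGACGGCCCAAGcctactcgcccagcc
Dctn1, chr6:83197319-83197333, plus strand: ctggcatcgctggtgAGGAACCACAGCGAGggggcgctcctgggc

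The exon of 21 bases that comes first was in 60.2% and 58.8% of the complete coding Dctn1 TPM compared for it. This leaves out 1 complete coding transcript, counted neither with nor without the exon, so the base is not that of the other exons. The next 2, of 18 and 21 bases, were in the same transcripts and in 65.3% and 63.0%. The fourth, of 15 bases, was in 50.1% and 50.4%. Dctn1-201, which lacks all 4 exons, held 32.4% and 32.9% of the gene's TPM, and Dctn1-203 46.8% and 44.8%. The shares of each Dctn1 exon differed by at most 2.25 percentage points between the libraries.

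Among the cargo kinesins, Kif1a, Kif1b and Klc1 had segments used in a mix, of which 1 each is shown.
Kif1a, chr1:93026832-93026855, minus strand: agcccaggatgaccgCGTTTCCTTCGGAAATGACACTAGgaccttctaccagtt
Kif1b, chr4:149265345-149265362, minus strand: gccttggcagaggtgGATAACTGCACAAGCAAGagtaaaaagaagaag
Klc1, chr12:111789460-111789486, plus strand: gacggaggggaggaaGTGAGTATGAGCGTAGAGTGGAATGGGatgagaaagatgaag

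The Kif1a exon of 24 bases was in 60.2% and 59.2% of the complete coding TPM. The Kif1b exon of 18 bases, with 2 further segments in the same transcript, was in 73.2% and 71.3%, and Kif1b-203, the transcript of 10233 bases that holds them, had 47.7 and 43.2 TPM. The Klc1 segment of 27 bases, the end of a longer form of an exon, was in 78.9% and 77.6%. Klc1-203 led with 54.4% and 51.0% of the gene's TPM, followed by Klc1-202 (20.3% and 21.3%), Klc1-201 (14.4% and 13.7%) and Klc1-204 (7.09% and 9.32%), an order that was the same in both libraries. The mix of Kif3a was not stable. Its exon of 9 bases was in 72.1% in replicate 1 and 94.2% in replicate 2, and its segment of 21 bases in 77.1% and 50.5%, so no Kif3a mix can be given from these libraries.

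**Figure D4:**
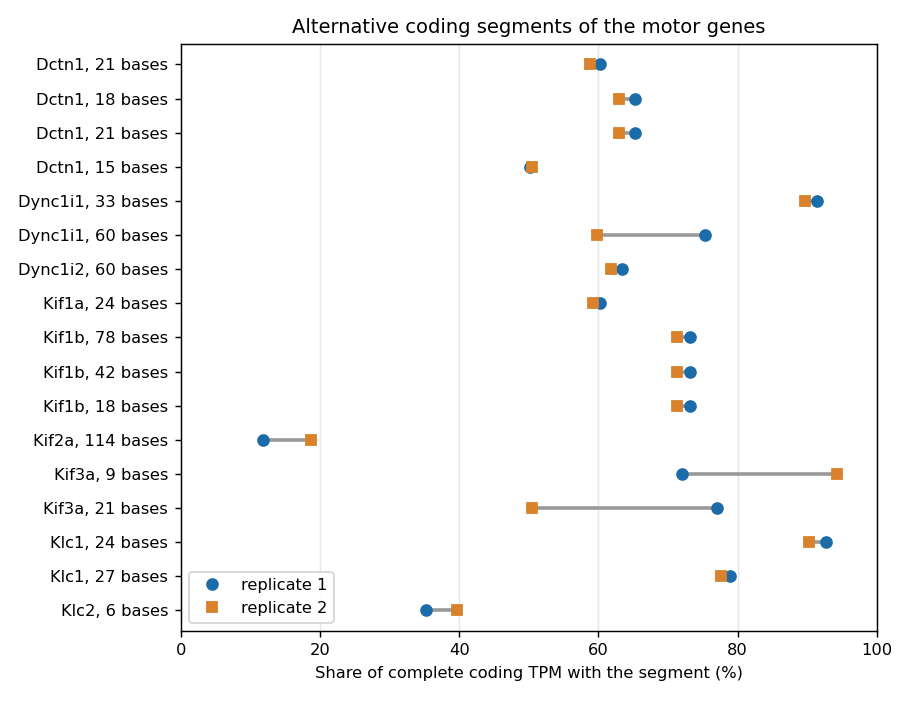
Share with each alternative coding segment, in percent of the complete coding TPM compared for that segment. A circle marks replicate 1, a square replicate 2 and a grey line joins them, with rows named by gene and length. Both Kif3a segments and the 60-base exon of Dync1i1 show the widest gaps, and the Dctn1, Dync1i2, Kif1a, Kif1b and Klc1 segments lie within 3 percentage points.

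The spread between the libraries was measured on the 60 motor genes whose expected counts averaged 100 or more. Their median log2 ratio of TPM, replicate 2 over replicate 1, was -0.12, and that of the 11966 protein-coding genes with such counts -0.11, so the motor genes are to be read against this general shift. When counts were scaled by TMM these medians became -0.01 and 0.01. The median absolute log2 difference was 0.13 for motor genes and 0.14 for protein-coding genes. A single motor gene, Kif9, differed by at least 1.5-fold in TPM, 1 of 60 (1.67%), against 2.67% of all protein-coding genes with such counts (2.26% were higher in replicate 1 and 0.409% in replicate 2). This share is near the background, and with TMM scaling or DESeq2 size factors no motor gene was past 1.5-fold. The DESeq2 size factor was 1 for each library, so that setting compared unscaled counts.

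Kif9 was higher in replicate 1, with 141 counts against 96 and a log2 ratio of -0.70. Markers of choroid plexus and multiciliated cells were also higher there. Of 6 markers, 5 had a mean count of at least 100, all 5 were higher in replicate 1 and 4 of them by at least 1.5-fold. The summed level of the 6 was 454 and 236 TPM, of which Ttr alone had 420 and 217 TPM, and none was at 0. Axonemal dyneins summed to 104 and 94.4 TPM, of which Dnal4 had 76.9 and 71.8 TPM, and without it to 26.9 and 22.6 TPM. Of the 6 with a mean count of at least 100, 5 were higher in replicate 1, and Dnaic2 alone by at least 1.5-fold (log2 ratio -1.11). Among all protein-coding genes with such counts, 9101 of 11966 were higher in replicate 1, and 2.26% by at least 1.5-fold. The direction of 5 of 6 axonemal dyneins is thus near the background, and a higher value in replicate 1 alone marks neither list. The part of such cells in the Kif9 difference was not tested. The next widest gaps were those of Kif26a (-0.44), Dync1h1 (-0.38), Kifc2 (-0.35) and Kif13a (-0.32) on the one side and Kif2a (0.28) on the other, and these 5 were picked for mention once their values were known. Over complete coding transcripts Dync1h1 had 23.7 and 19.9 TPM and Kif2a 17.3 and 16.7 TPM, the latter in the other order than by gene TPM.

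**Figure D5:**
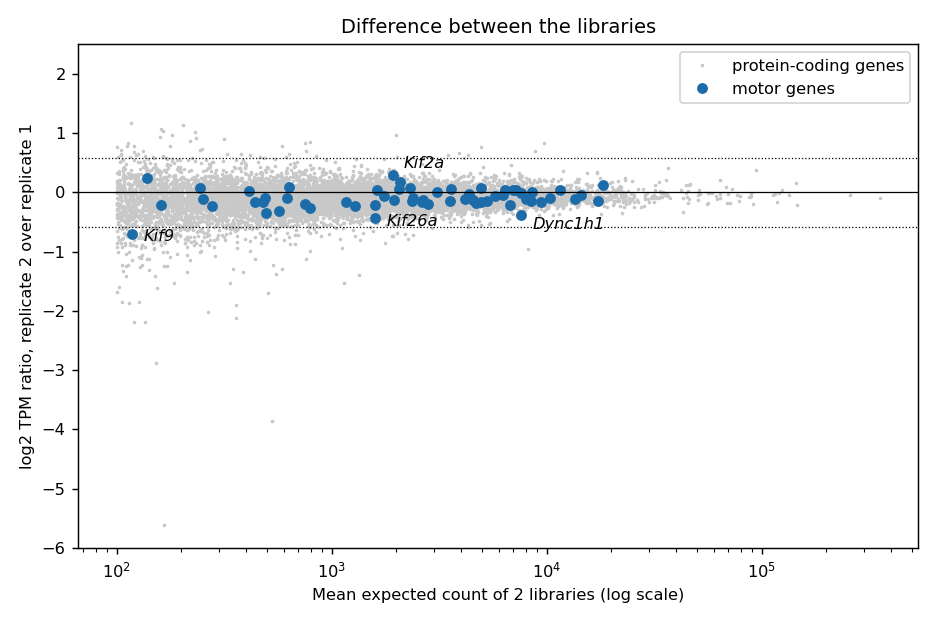
log2 ratio of TPM, replicate 2 over replicate 1, against the mean expected count on a log axis, with 11966 protein-coding genes in grey and the 60 motor genes in blue; dotted lines mark a 1.5-fold difference. Kif9 is the single motor gene past a dotted line.

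Partners of the motors were also present. All 18 adaptors and regulators of kinesins reached 1 TPM in both libraries, with a median of 47.9 TPM, led by Fez1, an adaptor of kinesin-1 in axons (499 ± 12.8 TPM), and Arl8a, a small GTPase that recruits kinesins to lysosomes and vesicle precursors (134 ± 3.71 TPM), with Map7 lowest (2.15 ± 0.431 TPM). Of 15 adaptors and regulators of dynein, 13 reached 1 TPM, with a median of 21.1 TPM. Nde1, which with Pafah1b1 (Lis1) regulates dynein in dividing progenitors, had 102 ± 6.74 TPM and Hap1 79.7 ± 4.14 TPM, while Bicdl2 had 0.08 ± 0.0141 TPM. The 9 further subunits of dynactin and dynein-2 had a median of 76.2 TPM, with the capping protein gene Capzb at 255 ± 6.36 TPM, the filament gene Actr1a at 241 ± 16.0 TPM and the dynein-2 gene Wdr60 at 6.70 ± 0.46 TPM. The 13 other mitosis genes had a median of 99.8 TPM, beside 24.2 TPM for the mitotic kinesins of the rule. The kinase gene Cdk1 and the cyclin gene Ccnb1 were highest at 306 and 236 TPM, and Cenpe, a kinesin by sequence whose symbol does not meet the rule, was lowest at 25.2 ± 0.834 TPM. Of the 55 genes in these 4 lists, 53 reached 1 TPM in both libraries, against 59% of all protein-coding genes. The lists hold known partners, chosen with earlier results of these data known. None of those with a mean count of at least 100 differed by 1.5-fold between the libraries. The share of all protein-coding genes was 2.67%, so none among so few genes is near the background.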

How the data were processed

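Total RNA was sequenced in 2 forebrain libraries, replicates 1 and 2 as numbered in the labels. Per the file headers, each has a gene and a transcript table whose columns follow RSEM's style, on mm10 by the labels. Aligner, version and strand use were not given in the sources used here. Expected counts, as deposited by the authors, are estimated reads per feature with shared reads divided. TPM, also as deposited, is corrected for length, with a posterior mean beside it, and a posterior SD is given for each count. The deposited percent values give a transcript's share of its gene.

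Of 43346 mouse genes, 42462 matched GENCODE M21 (GRCm38, the same assembly), which gave symbols, classes, coordinates and sequences, and mitochondrial genes were kept. Of 2 identifiers sharing a symbol, the one with more counts was kept. Role and pathway lists, named genes and members were chosen with earlier results of these data known. Named are all members of role lists with 7 or fewer genes, the 5 highest and the lowest of longer lists, every paralog of the compositions, genes at least 1.5-fold apart between the libraries, and, of pathway lists, the 2 highest and the lowest. Isoforms are named for genes at 10 TPM or more whose leader held under 60% or differed between libraries, and for a set list. Expected counts were rounded for edgeR 4.0.16 (TMM) and DESeq2 1.42.0 (size factors), used for scaling only. Coding sequences were aligned end to end with Biopython 1.88. Segments of 6 to 130 coding bases were compared where 2 complete coding transcripts with 5% or more of the gene differed. Other steps used Python 3.11.15 and R 4.3.3. The fold comparison was tested on simulated data.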

Additional observations from a re-analysis of the deposited data

Results flagged for a closer look

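Dynlt1-ps1, a processed pseudogene on chromosome 6 (135349408 to 135349749, GRCm38) that the rule for motor genes leaves out because it is not protein coding, was listed at 184 TPM in replicate 1 and 158 TPM in replicate 2 (171 ± 18.4, SD, n = 2), on 994 and 930 estimated counts. It stands here because these counts are above the 3 that a count of 0 allows. Its name and class make it a copy of the Dynlt1 genes, and whether its reads come from them was not tested. The other 4 non-coding rows with such symbols had at most 3 counts.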

How the results depend on the processing

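With 2 libraries of 1 group there is no test, and depth limits genes under 100 counts. No paired analysis was possible because there is 1 group and no comparison between groups. Of 99 alternative values, 69 stayed within the spread between the libraries (for counts, within 1.5 times) and 30 moved further. Leaving out 1 library cannot move a mean over both libraries past their SD, so such shares, ratios and differences were bound to stay. Among these values no difference between lists and no median log2 ratio of the motor genes changed sign, and shares, counts and levels cannot. Ratios of single genes between the libraries were not among them, and that of Kif2a did change sign over complete coding transcripts. The order of Kif5b and Kif5c reversed over complete coding transcripts and by expected counts, and by counts Dync1li1 fell below Dync1li2. The median motor level was 29.8 to 31.1 TPM with 1 library left out, 24.3 TPM from the mean of log2(TPM + 1), 36.6 TPM over members at 1 TPM or more and 24.2 TPM over complete coding transcripts. Mitotic minus cargo kinesins was 1.26 with a pseudocount of 0.1, 0.25 with means and 0.31 over members at 1 TPM or more. Dynactin minus dynein-1 was 0.30 with means and 0.26 over complete coding transcripts. Without length correction, by expected counts, the shares were 15.9% for Kif5a, 31.5% for Kif5b, 52.6% for Kif5c, 39.4% for Dync1li1, 92.0% for Dynll1, 98.6% for Dynlrb1 and 94.5% for the Dynlt1 copies, and intermediate and light intermediate over heavy chain 1.23 and 1.65. Over complete coding transcripts they were 18.2%, 26.4% and 55.4% for Kif5a, Kif5b and Kif5c, 81.3% for Klc1 and 94.6% for Dynll1, and 7.10 and 7.26 for both ratios to the heavy chain. Motor genes past the fold between libraries numbered 0 with TMM, 0 with DESeq2 size factors, 0 at 2-fold, and 3 with a count minimum of 10 (Klc3, Kif9 and Kif19a, seen after the fact), against 1.81%, 1.82%, 0.501% and 8.66% of protein-coding genes. Beyond what each setting changes by construction, the cause was not tested.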
